A study of Mus musculus with 6 samples.

Results

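*Wdfy1* is a gene of mouse chromosome 1 that had a higher level in cultured airway cells from *Dnaaf5* mutant mice than in cells from wild-type mice, and it is described here with the 7 genes listed as its neighbours: *Acsl3*, *Scg2*, *Ap1s3*, *Mrpl44*, *Serpine2*, *Cul3* and *Dock10*. All 8 genes were found by symbol among the 20483 genes of the deposited table. *Wdfy1* was chosen by its measured difference in UMI counts between the genotypes, and its neighbours by their place beside it, so its own values are given as a description with no test, and the question put to the data is whether the genes beside it on the chromosome differ as well.

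The study grew tracheal epithelial cells of C57BL/6 mice at 12 weeks of age as air-liquid interface (ALI) cultures, in which basal progenitors form secretory and multiciliated cells, and profiled them by single-cell RNA-Seq (scRNA-Seq). The *WT/WT* group held 3 mice with unaltered *Dnaaf5*, a factor that preassembles the dynein motors of cilia, and the *MIS/MIS* group held 3 mice with the C498F missense change in both copies of the gene, introduced by gene editing of C57BL/6 embryos. The missense allele was found in 1 founder pup, which was bred to wild-type mice, so the *MIS/MIS* group is a single edited line. The study calls the groups littermates, and the substrain of the mice is not given in the sources used here. The table held 23871 cells in 16 annotated cell types, with a median of 21327.5 to 35383 unique molecular identifiers (UMIs, the count of captured transcripts) per cell in the 6 libraries, and 67 cell barcodes occurred in more than 1 library.

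The median of UMIs per cell was lowest for WT2 among the *WT/WT* mice and for MT1383 among the *MIS/MIS* mice. These libraries held the most cells of their groups, 4844 and 6710, and the most UMIs in total. The 5 multiciliated markers, among them *Foxj1*, summed to between 1665 and 2131 UMIs per 1000000 UMIs of the same cells (CPM) in multiciliated cells. They summed to at most 22.4 CPM in secretory or basal cells. The 5 secretory markers were not confined to 1 class. They summed to 14634 to 40569 CPM in secretory, 773 to 2401 CPM in multiciliated and 1207 to 3966 CPM in basal cells. The 5 basal markers summed to 730 to 2324 CPM in basal cells and to at most 79.5 CPM in the other 2 classes. Of the 4 immune markers, *Ptprc*, the common leukocyte marker, and *Cd3e* of T cells were at 0 to 0.0785 and 0 to 0.0391 CPM over all cells of a mouse. *Cd68* was at 17.3 to 24.1 CPM and *Lyz2*, a lysozyme gene of macrophages and of some epithelial cells, at 511 to 1082 CPM, and both overlapped between the genotypes over all cells. The Y-linked gene *Ddx3y* was at 59.3 to 81.7 CPM and *Xist*, which marks an inactive X chromosome, at 0.251 to 0.475 CPM in the 6 mice. *Dnaaf5* itself was at 38.2 to 49.4 CPM in multiciliated cells of *WT/WT* and 49.3 to 54.9 CPM in those of *MIS/MIS* mice, a log2 fold change of 0.28 with an adjusted p of 0.896 in limma's voom test, and a count of 3′ tags cannot show a missense change.

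WDFY1 carries WD40 repeats and a FYVE zinc finger, a domain that binds the lipid phosphatidylinositol 3-phosphate on early endosomes. It is known as an adaptor that brings TRIF, encoded by *Ticam1*, to the Toll-like receptors TLR3 and TLR4, which sense double-stranded RNA and bacterial lipopolysaccharide and lead to NF-kappaB and interferon responses. Airway epithelial cells use this pathway as a first line against viruses and bacteria.

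In the GENCODE annotation of GRCm38 (mm10), *Wdfy1* lies on the minus strand of chromosome 1 from 79702262 to 79776143. Of its 9 coding transcripts, 7 start at 79761769 and 1 starts at the gene's outer end, with a first exon from 79775960 to 79776143. *Mrpl44* begins at 79776018 on the plus strand and ends at 79781445, so the 5′ ends of both genes overlap by 126 bases, while the 3′ ends, which this 3′ tag chemistry reads, point away from each other. *Serpine2* follows after 18.1 kb, *Cul3* after 489 kb and *Dock10* after 725 kb. On the other side *Ap1s3* ends 30.3 kb before *Wdfy1*, *Scg2* 262 kb and *Acsl3* 995 kb before it.

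The stretch where *Wdfy1* meets a listed neighbour is shown because it is the closest contact of the genes described. The RefSeq window of *Mrpl44* runs from 250 bases before to 50 bases after its start, and its last 108 bases lie in the outer exon of *Wdfy1*. The 192 bases before that exon (GRCm38.p6, chr1:79775768-79775959, plus strand) are upstream of *Mrpl44* and, read on the minus strand, the start of the *Wdfy1* intron. The capitals mark the 6 intron bases next to the exon, where the outer *Wdfy1* transcript is spliced.

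Mrpl44 upstream: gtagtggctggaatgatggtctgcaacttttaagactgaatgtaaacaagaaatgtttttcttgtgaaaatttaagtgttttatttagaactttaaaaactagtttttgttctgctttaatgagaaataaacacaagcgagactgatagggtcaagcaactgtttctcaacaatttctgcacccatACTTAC

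The whole window held 7 CpG dinucleotides, equal to the median of the 32851 mouse windows. RefSeq windows were matched for 7 of the 8 genes, all but *Wdfy1*.

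*Wdfy1* was higher in *MIS/MIS* than in *WT/WT* mice in each cell type in which all 6 mice had cells, and there the genotypes did not overlap. Over all cells it stood at 20.1 CPM in WT1, 26.4 in WT2 and 22.1 in WT3, against 69.9 in MT1301, 81.6 in MT1306 and 91.8 in MT1383, from 8152 UMIs in *WT/WT* and 32360 in *MIS/MIS* cells. Within each genotype the highest value was that of the library with the lowest median of UMIs per cell, and the part of depth in that order was not tested.

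In multiciliated cells *Wdfy1* was at 25.2, 31.7 and 28.6 CPM in WT1, WT2 and WT3 and at 100.2, 107 and 111 CPM in MT1301, MT1306 and MT1383. The means were 28.5 ± 3.23 and 106 ± 5.34 CPM (SD, n = 3 mice each), a 3.72-fold difference, and the lowest *MIS/MIS* mouse was 3.16-fold above the highest *WT/WT* mouse. The log2 fold change ranked 7 among the 14206 genes tested in this class, of which 6.84% were higher in every *MIS/MIS* mouse than in any *WT/WT* mouse. *Wdfy1* was chosen for this difference, so the rank is only a description.

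In secretory cells the values were 24.2, 25.3 and 19.5 CPM in *WT/WT* against 66.1, 74.8 and 81.0 CPM in *MIS/MIS* mice, a 3.22-fold difference of the means. In basal cells they were 17.2, 26.3 and 21.6 against 62.2, 73.3 and 83.1 CPM, a 3.36-fold difference. With a gap of any size, 2.92% of the genes tested in secretory and 6.08% in basal cells were higher in *MIS/MIS* without overlap. The 3 classes had similar levels within a genotype, with multiciliated cells of *MIS/MIS* mice above the other 2 classes of those mice. The basal class was a different mix of clusters in each mouse. Basal4 made up 1048 of 1834 basal cells in WT1, 2 of 1898 in WT2 and 1 of 1819 in MT1301, and Basal2 made up 1295 of 2836 in MT1383. Basal class values therefore compare unlike mixes, and the clusters are given separately below.

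Among the clusters, Multiciliated3, the largest multiciliated cluster, had the highest mean *Wdfy1* in both genotypes. It stood at 31.9 ± 3.58 CPM in *WT/WT* and 123 ± 8.57 CPM in *MIS/MIS* mice, a 3.85-fold difference. Multiciliated1 had 25.2 ± 3.39 and 87.7 ± 4.08 CPM and Multiciliated2 26.3 ± 3.53 and 83.2 ± 6.85 CPM. Multiciliated4 had 13.0 ± 13.9 and 103 ± 16.3 CPM, but rested on 10 UMIs in 51 *WT/WT* cells, and its 6 WT2 cells had none.

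The secretory clusters had similar levels, with 22.0 ± 3.23 against 72.8 ± 8.40 CPM in Secretory1 and 24.5 ± 2.43 against 74.6 ± 5.33 CPM in Secretory2. Basal1, Basal2 and Basal3 lay close to them, at 25.2 ± 8.09, 23.6 ± 3.05 and 25.8 ± 0.628 CPM in *WT/WT* and 86.0 ± 4.24, 79.3 ± 7.86 and 79.1 ± 14.7 CPM in *MIS/MIS* mice. Basal6, Basal7 and Basal8 had lower means in both genotypes, at 19.2 ± 3.16, 19.2 ± 0.975 and 15.5 ± 3.26 CPM in *WT/WT* and 52.5 ± 11.6, 59.5 ± 15.2 and 56.1 ± 13.0 CPM in *MIS/MIS* mice. Their ranges over the mice overlapped that of Basal1, Basal2 or Basal3, except for Basal6 in *MIS/MIS* mice.

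The sparse cell types had the same direction with less certainty. Basal4, which had 1 cell of MT1301 and 2 of WT2, was at 17.9 ± 5.85 and 46.8 ± 14.1 CPM, the smallest difference among the cell types with cells of all 6 mice (2.62-fold). Its highest *WT/WT* value, 24.6 CPM in WT2, and its lowest *MIS/MIS* value, 30.5 CPM in MT1301, were each a single UMI. They came from totals of 40685 and 32742 UMIs, so the gap between them was set by those totals alone. Basal5 had no cells of WT2 and stood at 21.0 and 22.8 CPM in WT1 and WT3 against 57.7, 71.8 and 87.0 CPM in the *MIS/MIS* mice. Neuroendocrine cells had 9.68 ± 13.2 and 53.2 ± 16.1 CPM, from 9 UMIs in 42 *WT/WT* cells and 76 UMIs in 121 *MIS/MIS* cells. Ionocytes were present in 3 mice only, with 12.7 CPM in WT1, 37.6 CPM in WT3 and 58.3 CPM in MT1383, a 2.32-fold difference of the means.

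Across the 14 cell types with cells of every mouse, the *MIS/MIS* to *WT/WT* ratio had a median of 3.34 and ran from 2.62 to 7.93. In the 9 of them with at least 20 cells in each mouse it ran only from 2.74 to 3.85. Counting each gene once in each of these cell types where its mean was 5 CPM or more, 5.15% of 134245 such values were higher in all *MIS/MIS* mice without overlap and 3.99% lower, and *Wdfy1* had the highest ratio of those genes in Basal2, Multiciliated1, Multiciliated3 and Secretory1. Its rank was 2 to 18 in most of the other types, 41 in Multiciliated4, 80 in neuroendocrine cells and 838 in Basal4. These ranks too only describe a gene chosen for this difference. In the order of mean levels, which Multiciliated3 led in both genotypes, all 13 pairs of successive cell types had overlapping ranges over the mice in *WT/WT*, and likewise in *MIS/MIS*.

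**Figure D1:**
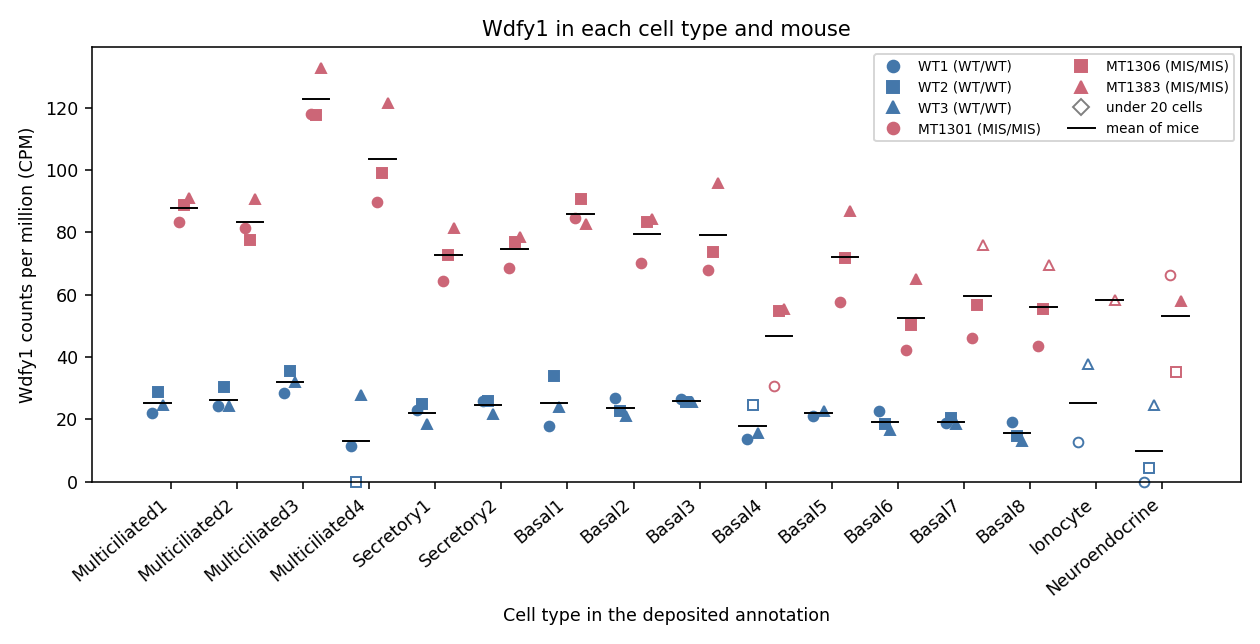
*Wdfy1* in CPM (y axis) for each mouse in the 16 annotated cell types (x axis); blue points are *WT/WT* and red points *MIS/MIS* mice, hollow points rest on under 20 cells, and black lines are means over mice. Every *MIS/MIS* point lies above every *WT/WT* point of the same cell type, and the highest value, 133 CPM, belongs to Multiciliated3, whose lowest *MIS/MIS* mouse at 118 CPM is below the highest of Multiciliated4 at 121 CPM.

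The share of cells with a *Wdfy1* UMI and the share with several UMIs were both higher in *MIS/MIS* mice. Each cell was thinned at random to 5000 UMIs, which all 23871 cells reached, so that the libraries could be compared at 1 depth. In multiciliated cells, 14.5%, 14.4% and 14.4% of the cells of WT1, WT2 and WT3 then had a UMI, against 40.3%, 40.9% and 45.0% of the cells of MT1301, MT1306 and MT1383. Cells with 2 or more UMIs made up 0.904% to 1.56% in *WT/WT* and 8.76% to 11.8% in *MIS/MIS* mice.

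Secretory cells with a UMI made up 9.36% to 12.1% in *WT/WT* and 27.0% to 32.7% in *MIS/MIS* mice. The shares in basal cells were 8.29% to 12.9% and 26.5% to 33.5%. Without thinning, 59.1% to 61.3% of *WT/WT* and 89.5% to 93.9% of *MIS/MIS* multiciliated cells had a UMI, with a mean of 1.03 to 1.10 and 2.73 to 3.82 UMIs per cell. A UMI from free RNA cannot be told apart from one of the cell, and no cell type here is known to lack the gene.

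**Figure D2:**
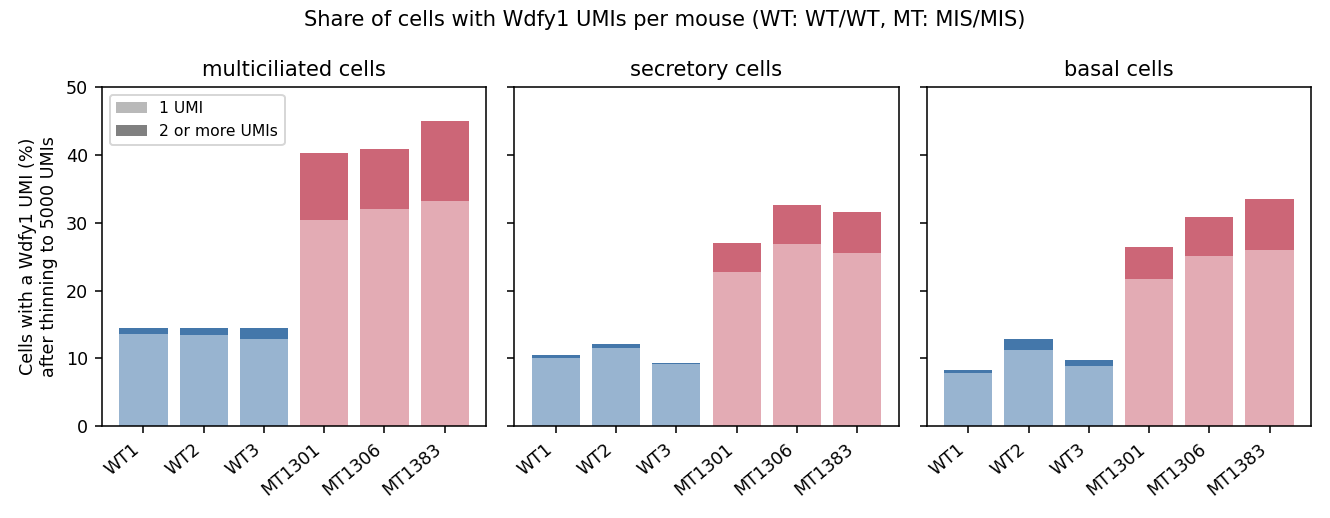
Percentage of cells with a *Wdfy1* UMI (y axis) after each cell was thinned to 5000 UMIs, for each mouse (x axis) in the 3 classes; pale bars are cells with 1 UMI and dark bars stacked on them cells with 2 or more. All *MIS/MIS* bars, from 26.5% to 45.0%, stand above all *WT/WT* bars, from 8.29% to 14.5%.

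The neighbours were tested in a fit over all genes on UMIs summed per mouse and class (the voom method of limma, p adjusted by Benjamini-Hochberg, 3 mice against 3). None of the 5 neighbours with enough counts passed an adjusted p of 0.05 in multiciliated, secretory or basal cells, nor had an unadjusted p under 0.05, while *Scg2* and *Dock10* were too low to be tested in any class. Of all genes tested, 0.00704% passed in the multiciliated, 0.00735% in the secretory and 0.0% in the basal class, and 4.32%, 1.9% and 2.29% had an unadjusted p under 0.05. *Wdfy1* is among the genes in these shares and was chosen on the same contrast, so nothing is read from its place there.

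*Ap1s3*, a sigma subunit of the AP-1 clathrin adaptor that sorts cargo at the trans-Golgi network, had the lowest p of the 5 neighbours in multiciliated and in secretory cells. It was at 11.8, 11.8 and 10.4 CPM in WT1, WT2 and WT3 and at 10.1, 8.35 and 9.83 CPM in MT1301, MT1306 and MT1383 in multiciliated cells. The genotypes did not overlap there, as they did not for 10.0% of all genes tested, with 3.19% lower in *MIS/MIS*. The log2 fold change was -0.28 (95% confidence interval -0.57 to 0.01, adjusted p = 0.896 with limma).

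In secretory cells *Ap1s3* was at 22.1, 22.1 and 20.9 CPM in *WT/WT* and 19.4, 18.5 and 20.5 CPM in *MIS/MIS* mice, again without overlap, which 5.5% of the genes tested shared and 2.57% in this direction. Its log2 fold change was -0.16 (interval -0.35 to 0.03, adjusted p = 1.00 with limma). In basal cells *Ap1s3* was at 14.3 to 17.6 CPM in *WT/WT* and 15.1 to 16.4 CPM in *MIS/MIS* mice. It was lower without overlap in Basal3, Multiciliated1 and Secretory2, and had overlapping ranges in the other 11 cell types with cells of every mouse. Of all pairs of a gene and a cell type at a mean of 5 CPM or more, 3.99% were lower without overlap.

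*Mrpl44*, a protein of the large mitochondrial ribosomal subunit and the gene that meets *Wdfy1* head to head, was at 28.1, 29.8 and 31.3 CPM in multiciliated cells of *WT/WT* and 26.9, 25.6 and 30.7 CPM in those of *MIS/MIS* mice. The ranges overlapped, with a log2 fold change of -0.12 (interval -0.33 to 0.10, adjusted p = 0.896 with limma). The log2 fold change was -0.01 (-0.17 to 0.15) in secretory and -0.04 (-0.28 to 0.21) in basal cells. In the few neuroendocrine cells *Mrpl44* was at 52.7 to 56.9 CPM in *WT/WT* and 23.5 to 41.9 CPM in *MIS/MIS* mice, the only cell type in which its ranges did not overlap, as for 8.82% of genes there in either direction.

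*Serpine2*, which encodes the secreted protease inhibitor nexin-1, lies on the other side of *Mrpl44*. In multiciliated cells it was at 9.69, 8.17 and 13.3 CPM in *WT/WT* and 7.70, 11.4 and 13.1 CPM in *MIS/MIS* mice, and in secretory cells between 0.956 and 2.07 CPM in all 6 mice. In basal cells it was at 10.7 CPM in WT1, 13.2 in WT2 and 46.3 in WT3 against 13.5, 13.9 and 10.5 CPM in the *MIS/MIS* mice. WT3 alone stood out, and within Basal1 it had 82.9 CPM against 4.57 to 17.1 CPM in the other mice.

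The log2 fold change of *Serpine2* in basal cells, -0.63 (interval -1.92 to 0.66, adjusted p = 1.00 with limma), became 0.01 without WT3. The same basal cells of WT3 held 38.8 CPM of *Col1a1*, a collagen of fibroblasts, which was at 0 to 0.0340 CPM in the other 5 mice. The 3 stromal markers *Col1a1*, *Dcn* and *Pdgfrb* summed to 86.9 CPM in WT3, to 6.92 and 10.8 CPM in WT1 and WT2 and to 18.1 to 43.8 CPM in the *MIS/MIS* mice. Their part in the *Serpine2* value was not tested.

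*Cul3*, the scaffold of a family of ubiquitin ligases, was at 141, 156 and 151 CPM in multiciliated cells of *WT/WT* and 145, 158 and 148 CPM in those of *MIS/MIS* mice. The log2 fold changes in multiciliated, secretory and basal cells were -0.01 (interval -0.18 to 0.16), -0.09 (-0.24 to 0.06) and -0.07 (-0.27 to 0.12). *Acsl3*, an acyl-CoA synthetase that activates long-chain fatty acids, was at 341, 324 and 320 CPM in *WT/WT* and 364, 396 and 283 CPM in *MIS/MIS* multiciliated cells. Its log2 fold changes were 0.05 (-0.25 to 0.35), -0.03 (-0.37 to 0.31) and -0.04 (-0.46 to 0.39).

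*Acsl3* was highest in Multiciliated3, at 431 to 523 CPM in *WT/WT* and 413 to 503 CPM in *MIS/MIS* mice, and MT1383 had the lowest *Acsl3* of the *MIS/MIS* mice in each of the 3 classes. *Cul3* was highest in neuroendocrine cells, at 179 to 220 CPM in *WT/WT* and 177 to 216 CPM in *MIS/MIS* mice. *Cul3* was lower without overlap in Basal3 and Secretory2, beside 3.99% of all pairs of a gene and a cell type at a mean of 5 CPM or more. *Acsl3* overlapped in all 14 cell types with cells of every mouse.

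*Scg2*, which encodes secretogranin II of secretory granules, was a neuroendocrine gene in these cultures. It was at 2354, 709 and 1327 CPM in the neuroendocrine cells of WT1, WT2 and WT3 and 738, 1372 and 905 CPM in those of MT1301, MT1306 and MT1383, and at 3.45 CPM or less in every other cell type and mouse. The neuroendocrine ranges overlapped (exact permutation test of the means, two-sided p = 0.7, where 3 mice against 3 allow no p under 0.1). At its low level in Multiciliated1, *Scg2* was lower in *MIS/MIS* mice without overlap. Of genes at a mean of 5 CPM or more in that cluster, 7.53% did not overlap in either direction. *Dock10*, which encodes a guanine nucleotide exchange factor, had 17 UMIs in all cells together, 10 in *WT/WT* and 7 in *MIS/MIS*, so no difference of *Dock10* was detectable at this depth.

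**Figure D3:**
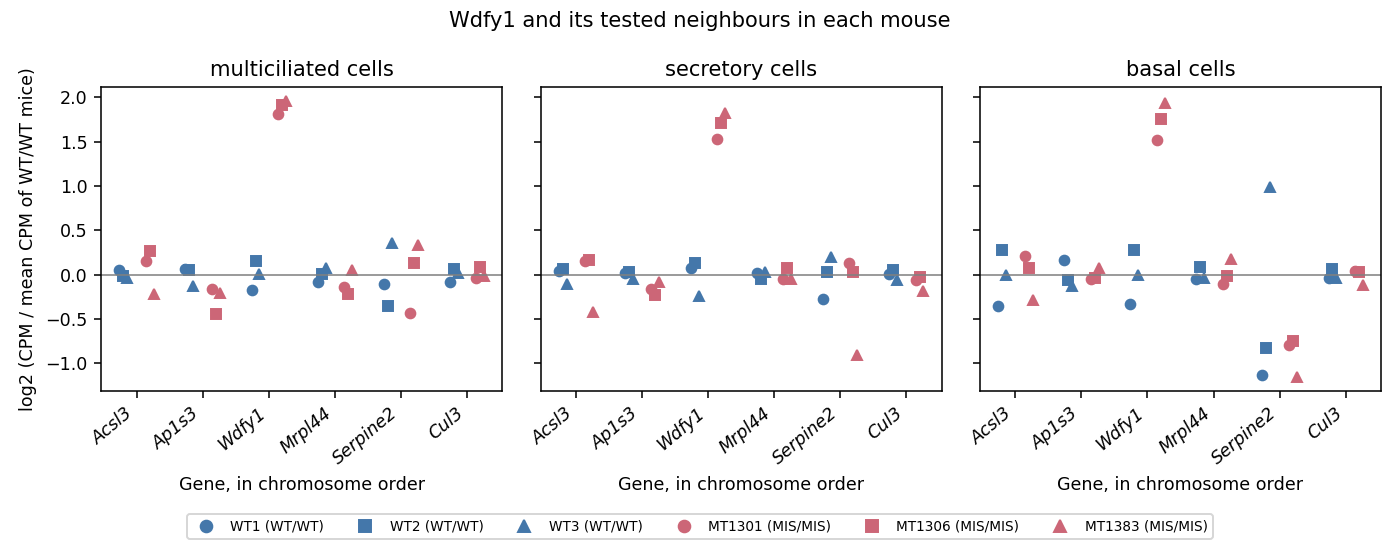
log2 of the CPM of each mouse over the mean CPM of the *WT/WT* mice (y axis) for *Wdfy1* and its 5 tested neighbours in chromosome order (x axis) in the 3 classes; blue points are *WT/WT* and red points *MIS/MIS* mice. *Wdfy1* is the gene whose red points stand far above the blue ones in each class, and *Serpine2* in basal cells has 1 *WT/WT* mouse, WT3 at 46.3 CPM, above all others.

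Over the 5 tested neighbours and 3 classes, the 95% intervals of the log2 fold change all contained 0. The highest upper bound was 0.66, for *Serpine2* in basal cells, whereas the log2 fold change of *Wdfy1* was 1.68 to 1.87. An increase of the size seen in *Wdfy1* lay above every interval of the 5 genes, while the lowest lower bound, -1.92 for *Serpine2* in basal cells, leaves room for a decrease of that size. Widening the view to the 5 nearest tested genes on either side added *Utp14b*, *Mogat1*, *Irs1* and *Rhbdd1* in every class, *5730419F03Rik* in multiciliated cells and *Farsb* in secretory and basal cells. The log2 fold changes of the 10 genes of each class ran from -0.33 to 0.08 in multiciliated, -0.31 to 0.05 in secretory and -0.63 to 0.13 in basal cells.

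The lowest p among those added was that of *Irs1*, the insulin receptor substrate, in secretory cells (6.93 CPM in *WT/WT*, 5.40 CPM in *MIS/MIS*, log2 fold change -0.31, adjusted p = 1.00 with limma). *Rhbdd1* in multiciliated cells was at 23.3 ± 1.06 and 24.6 ± 0.437 CPM without overlap, a log2 fold change of 0.05. Of all genes tested there, 6.84% were higher without overlap. *Utp14b* overlaps *Acsl3* on the same strand, so reads in the shared stretch cannot be assigned with certainty.

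Within 5 Mb of *Wdfy1* none of the 45 other tested genes in multiciliated, 42 in secretory and 47 in basal cells passed. An unadjusted p under 0.05 was reached by 3, 2 and 1 of them, which is 6.67%, 4.76% and 2.13% beside 4.32%, 1.9% and 2.29% of all genes tested. The 3 in multiciliated cells were *Epha4* (13.1 CPM in *WT/WT*, 7.52 CPM in *MIS/MIS*), *Glb1l* (7.56 and 9.45 CPM) and *Dner* (0.701 and 1.37 CPM), the 2 in secretory cells *Cfap65* and *Ccl20*, and the 1 in basal cells *Col4a4*. No gene was in more than 1 of these 3 groups. *Epha4*, 2.19 Mb away, had log2 fold changes below 0 in all 3 classes, at -0.70 in multiciliated, -0.31 in secretory and -0.62 in basal cells. Its means were 38.1 and 30.6 CPM in secretory and 46.9 and 30.5 CPM in basal cells, with overlapping ranges in both. *Glb1l* and *Col4a4* were above 0 in all 3 classes, and *Cfap65* and *Ccl20* changed sign between classes.

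Within 5 Mb the median log2 fold change was 0.053 in multiciliated, -0.0057 in secretory and -0.0045 in basal cells, where the medians of all genes tested were 0.0066, -0.0044 and -0.0069. Out to 10 Mb, an unadjusted p under 0.05 was reached by 9 of 110, 5 of 102 and 2 of 115 genes. In multiciliated, secretory and basal cells these were 8.18%, 4.90% and 1.74%, beside 4.32%, 1.9% and 2.29% of all genes tested. Within 5 Mb the genotypes did not overlap for 8 of 45, 3 of 42 and 2 of 47 genes. Out to 10 Mb they did not overlap for 18, 8 and 10 genes, of which 15, 7 and 7 were higher in *MIS/MIS*. The shares of all genes tested without overlap were 10.0%, 5.5% and 7.96%. The highest log2 fold change in that range belonged to genes with few UMIs: *Igfbp2* in multiciliated cells was at 0 to 0.444 CPM in *WT/WT* and 0.620 to 1.42 CPM in *MIS/MIS* mice, and *Ccl20*, a chemokine, in secretory cells at 0.305 to 2.70 and 1.19 to 6.09 CPM. Among well counted genes, *Gm29538*, a predicted gene 8.67 Mb away, had a mean of 94.4 CPM in *WT/WT* and 138 CPM in *MIS/MIS* multiciliated cells without overlap (log2 fold change 0.53, adjusted p = 0.896 with limma), and log2 fold changes of 0.40 in secretory and 0.57 in basal cells, where it was at means of 0.768 to 1.28 CPM and did not overlap either. *Igfbp5*, which encodes an insulin-like growth factor binding protein, had means of 204 and 302 CPM in secretory cells with overlapping ranges. The log2 fold change there was 0.56 (adjusted p = 1.00 with limma). It was 0.42 in multiciliated and 0.74 in basal cells, without overlap in the basal class. Of all genes tested, 6.84%, 2.92% and 6.08% were higher without overlap in multiciliated, secretory and basal cells.

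**Figure D4:**
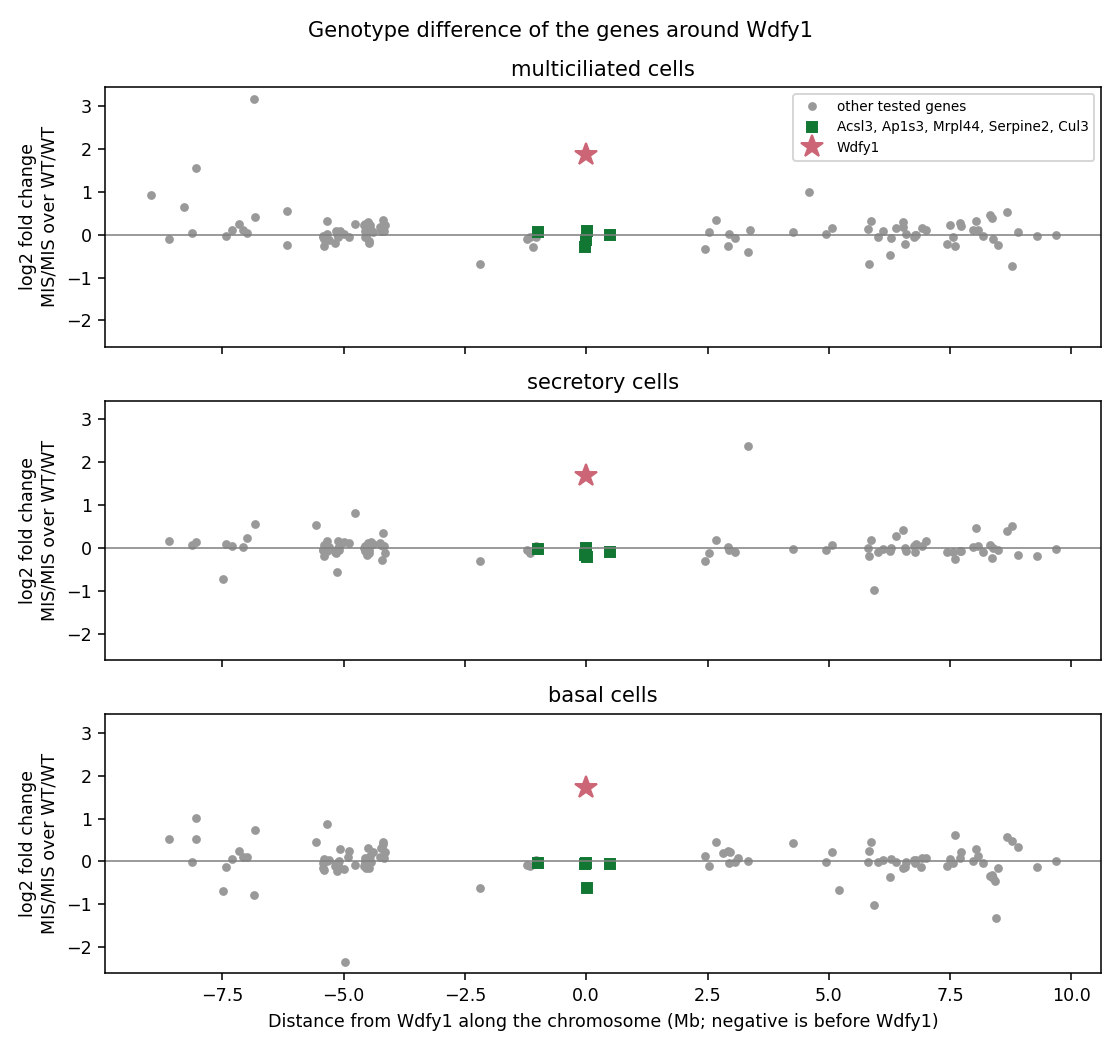
log2 fold change of *MIS/MIS* over *WT/WT* (y axis) of the tested genes within 10 Mb of *Wdfy1* by their distance from it in Mb (x axis) in the 3 classes; the star is *Wdfy1*, green squares are the 5 tested neighbours and grey points all other genes. The squares lie between -0.63 and 0.08, and the star between 1.68 and 1.87.

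No gene of the pathway in which WDFY1 acts passed the test. Of a list of 25 genes of TLR3 and TLR4 signalling, 24 were in the table and 23 were tested in each class. An unadjusted p under 0.05 was reached by 3 genes in multiciliated, 1 in secretory and 1 in basal cells, which is 13.0%, 4.35% and 4.35% beside 4.32%, 1.9% and 2.29% of all genes tested. The median log2 fold change was -0.05, -0.02 and -0.04. The receptors and the adaptor that WDFY1 is known to join had overlapping ranges: *Tlr3* was at 18.7 ± 1.56 and 19.1 ± 2.00 CPM, *Tlr4* at 15.05 ± 1.79 and 15.7 ± 1.20 CPM and *Ticam1* at 7.49 ± 0.564 and 8.11 ± 1.25 CPM in multiciliated cells of *WT/WT* and *MIS/MIS* mice.

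*Ly96*, which encodes the MD-2 co-receptor of TLR4, was the gene of that list with the lowest p in secretory and basal cells. It was at 41.5, 29.9 and 30.0 CPM in *WT/WT* and 26.5, 25.04 and 28.3 CPM in *MIS/MIS* multiciliated cells. The genotypes did not overlap in multiciliated, secretory or basal cells, with log2 fold changes of -0.33, -0.26 and -0.29 (adjusted p = 0.896, 1.00 and 1.00 with limma). None of these passed, and 3.19%, 2.57% and 1.89% of all genes tested were lower without overlap in the same classes.

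*Nfkbia*, which encodes the inhibitor IkappaB-alpha and is itself a target of NF-kappaB, was at 96.4, 101 and 130 CPM in *WT/WT* and 85.5, 75.0 and 79.7 CPM in *MIS/MIS* multiciliated cells (log2 fold change -0.46, adjusted p = 0.896 with limma). Its log2 fold changes in secretory and basal cells were 0.03 and -0.07. *Ccl5*, a chemokine target of the pathway, was at 0.887 to 3.74 and 0.130 to 0.864 CPM in multiciliated cells and at 2.65 to 17.7 and 8.65 to 24.2 CPM in basal cells. *Cd14*, the lipopolysaccharide carrier, was at 163 ± 5.46 and 138 ± 28.3 CPM in multiciliated cells, with overlapping ranges.

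The interferon-stimulated genes of the list spread widely over the mice of either genotype. *Ifit1* was at 209 ± 58.0 and 234 ± 79.5 CPM, *Isg15* at 28.0 ± 15.7 and 30.1 ± 19.7 CPM and *Irf7* at 26.9 ± 11.8 and 31.9 ± 16.3 CPM in multiciliated cells of *WT/WT* and *MIS/MIS* mice. *Cxcl10* was at 2.10 ± 1.58 and 1.09 ± 0.528 CPM in secretory cells, with a log2 fold change of -1.04 (interval -2.52 to 0.45).

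Early endosome genes gave no call either. Of 20 listed genes, which include the WDFY relatives and FYVE proteins, 19 were tested in each class. None passed, beside 0.00704%, 0.00735% and 0.0% of all genes tested in multiciliated, secretory and basal cells. None had an unadjusted p under 0.05, beside 4.32%, 1.9% and 2.29%. A count of 0 among 19 genes is near these shares. The median log2 fold changes were 0.0090, -0.00061 and -0.0078. *Eea1*, the tethering protein of early endosomes, was at 70.9 ± 4.71 and 62.5 ± 4.67 CPM in multiciliated cells (log2 fold change -0.20, adjusted p = 0.896 with limma). *Wdfy2* was at 17.3 ± 3.03 and 16.7 ± 1.15 CPM and *Wdfy3* at 30.2 ± 3.64 and 32.1 ± 2.58 CPM in the same cells. *Rab5a*, the early endosome GTPase, was at 81.4 ± 1.51 and 79.7 ± 2.19 CPM.

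Genes known to carry alleles that differ between C57BL/6 substrains were examined because the labels give the strain only as C57BL/6. Of 9 listed genes 7 were in the table, and 3 were tested in multiciliated, 3 in secretory and 4 in basal cells, with none passing. An unadjusted p under 0.05 was reached by 1 of the 3 in multiciliated cells (33.3% beside 4.32% of all genes tested), *Cyfip2*, and by 0 in the other classes. *Nnt*, the mitochondrial transhydrogenase that is partly deleted in C57BL/6J, was at 1.38 ± 0.107 and 1.60 ± 0.160 CPM in multiciliated, 1.31 ± 0.136 and 1.53 ± 0.195 CPM in secretory and 1.46 ± 0.0560 and 1.95 ± 0.572 CPM in basal cells. Its log2 fold changes, 0.19, 0.25 and 0.29, did not pass, and the genotypes did not overlap in basal cells, as for 7.96% of genes there.

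*Cyfip2*, an actin regulator with a coding variant in C57BL/6N, was at 61.6, 59.4 and 63.2 CPM in *WT/WT* and 71.8, 79.6 and 73.1 CPM in *MIS/MIS* multiciliated cells (log2 fold change 0.26, adjusted p = 0.896 with limma). The genotypes did not overlap there, with 6.84% of genes higher in this way. The log2 fold changes of *Cyfip2* in the secretory and basal classes were -0.25 and -0.14. *Ide*, the insulin-degrading enzyme, had log2 fold changes of 0.01, 0.03 and 0.09. It did not overlap in basal cells, at 50.03 to 54.2 CPM in *WT/WT* and 56.8 to 57.8 CPM in *MIS/MIS* mice, where 6.08% of genes were higher without overlap.

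Genes whose levels most resembled that of *Wdfy1* lay on other chromosomes. Over the 18 sums of 6 mice and 3 classes, which share mice and libraries, the 5 highest Pearson correlations of log2(CPM + 1) with *Wdfy1* among 10248 genes at a mean of 5 CPM or more included those of *Rab4a* (r = 0.81), *Fbxo21* (0.75), *Slc16a7* (0.75) and *Eya2* (0.72). The lowest were those of *Gm47283* (-0.80), *Arpc5l* (-0.68) and *Ly96* (-0.67). *Ly96* lies on chromosome 1, as *Wdfy1* does, and starts at 16688051. *Fbxo21* lies on chromosome 5, as *Dnaaf5* does, with starts at 117976730 and 139150223. The part of position in these correlations was not tested. The tested neighbours had r from -0.36 for *Ap1s3* to 0.23 for *Acsl3*.

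*Rab4a*, a GTPase of endosome recycling, was at 7.69, 7.69 and 9.31 CPM in *WT/WT* and 13.1, 15.2 and 12.5 CPM in *MIS/MIS* multiciliated cells, and at 5.00 to 6.57 and 9.44 to 11.8 CPM in basal cells. *Slc16a7*, a monocarboxylate transporter, was at 27.9 to 32.8 and 40.9 to 66.3 CPM in multiciliated cells. *Gm47283*, a predicted gene annotated on chromosome Y, went the other way, at 39.4, 86.1 and 95.6 CPM in *WT/WT* and 3.57, 17.0 and 1.79 CPM in *MIS/MIS* multiciliated cells. These genes were chosen for this pattern, so their values are a description.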

How the data were processed

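Tracheal ALI cultures from 6 mice, 3 of each genotype, were profiled with the 10x Genomics 3′ v2 kit. The deposited values are whole UMI counts per gene and cell, without normalization, which the authors made with Cell Ranger (7.1.0 in the submitters' processing notes, another version in the study's methods) against mm10 and annotated in Seurat. The separator of the deposited table is not a tab, so its columns were recorded as an other unit, and count models of edgeR or DESeq2 were not run. The doublet and quality filters of the study keep 23214 of the 23871 deposited cells, and all cells were used, with no doublet caller.

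UMIs were summed per mouse and cell type or class. CPM is the sum over the total UMIs of the same cells. Genes were tested in limma 3.58.1 (voom, R 4.3.3) with TMM factors, Benjamini-Hochberg adjustment over all genes tested and a threshold of 0.05. A gene needed a CPM equal to 10 UMIs in the median library in 3 mice and 15 UMIs in all, which left 14206, 13610 and 14615 genes in multiciliated, secretory and basal cells. At this filter, 1, 1 and 0 genes passed, and 614, 258 and 334 had an unadjusted p under 0.05. The script was tested on simulated data. Class totals were 13516848 to 73192479 UMIs per mouse. Positions came from GENCODE M21, in which 20101 genes had 1 position.

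Members and gene lists were chosen with earlier results of these data known. Named were the 8 members, the 5 nearest tested genes on either side, any gene within 5 Mb past the threshold, per list those past it and up to 4 of lowest p per class, *Nnt* and *Dnaaf5*, and the 5 genes most (1 of them is not reported here) and 3 least like *Wdfy1*; the genes within 5 Mb with an unadjusted p under 0.05, *Igfbp2*, *Igfbp5*, *Gm29538*, immune markers, *Col1a1*, *Ddx3y*, *Xist* and further list members were named after their values were seen. Mutant library names match no single sample label, so those libraries entered as unnumbered replicates of their group.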

Additional observations from a re-analysis of the deposited data

How the results depend on the processing

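No neighbour within the list, no other gene within 5 Mb of *Wdfy1* and no gene of the 3 lists passed in any of the 216 alternatives to the 15 list counts, which widened or narrowed the window to 10 or 1 Mb at otherwise unchanged settings, or changed the scaling (median-of-ratios or upper-quartile factors), the low-count filter, the test (limma-trend), the cells (largest cluster, stated filters, thinning) or left out a mouse. At the main settings only 1, 1 and 0 of all genes tested passed in multiciliated, secretory and basal cells. A count of 0 for a short list was therefore likely from the outset and does not show that its genes are unchanged. *Wdfy1* kept its direction, with log2 fold changes of 1.76 to 1.95 in multiciliated, 1.58 to 1.77 in secretory and 1.59 to 1.86 in basal cells. The excess of cells with a *Wdfy1* UMI was 31.7, 31.4 and 38.6 percentage points in multiciliated, secretory and basal cells without thinning. Thinning lowered the share of cells with a UMI in every mouse and class, and the part of depth in the excess was not tested.

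Several neighbour log2 fold changes close to 0 changed sign. In the largest cluster alone they were -0.034 (*Acsl3*) and -0.14 (*Serpine2*) for multiciliated cells, 0.040 (*Acsl3*) and 0.0049 (*Mrpl44*) for secretory cells and 0.058 (*Acsl3*) and 0.065 (*Ap1s3*) for basal cells. For *Mrpl44* in secretory cells it was 0.0012 with upper-quartile factors and 0.12 in thinned cells. Leaving out 1 mouse gave ranges of -0.055 to 0.19 (*Acsl3*), -0.14 to 0.28 (*Serpine2*) and -0.055 to 0.019 (*Cul3*) in multiciliated cells, -0.11 to 0.15 (*Acsl3*), -0.030 to 0.021 (*Mrpl44*) and -0.44 to 0.071 (*Serpine2*) in secretory cells, and -0.16 to 0.12 (*Acsl3*), -0.14 to 0.077 (*Ap1s3*), -0.12 to 0.029 (*Mrpl44*) and -1.01 to 0.012 (*Serpine2*) in basal cells, and the cause was not tested. *Ap1s3* stayed below 0 in multiciliated and secretory cells. No paired analysis was possible because the mutant columns carry no replicate number that the groups share. Genes at the level of *Dock10*, and cell types with few cells, are limited by depth.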
